A study of Mus musculus with 2 samples.

Results

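The genes described here are 9 adipogenic regulators and lipid genes, Pparg, Cebpa, Cebpb, Cebpd, Lpl, Fabp4, Adipoq, Zfp423 and Ppargc1a. They were chosen by symbol, independently of a cut on measured values, and are 9 of the 21849 genes counted in each library. Their transcripts, counted as unique molecular identifiers (UMIs, tags that mark single captured molecules), were read in costal-cartilage-derived stem cells (CDSCs) of the mouse before and after culture.

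CDSCs were released with collagenase from the rib cartilage of newborn C57BL/6J mice that were CD45.1 or carried ZsGreen, and the study defines them as CD45- CD51+ cells. Freshly isolated (primary) CDSCs and CDSCs cultured in serum-containing medium to passages 2 to 3 had each given 1 library for single-cell RNA sequencing, to learn whether culture changes them. Neither group was given an adipogenic treatment in the labels. Which of the donor strains, how many animals and whether the same animals supplied both libraries were not given in the sources used here, and the labels name bone marrow as the tissue of both. Each group is 1 library, so no test was performed, every difference lacks a replicate check, and culture, donor, library and depth cannot be told apart. All intervals below are exact 95% intervals that cover counting error only.

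Adipogenesis is a relay of transcription factors. C/EBPβ and C/EBPδ (Cebpb, Cebpd) are induced early, and the zinc finger protein ZFP423 commits precursors and favours Pparg. PPARγ (Pparg), the nuclear receptor that is the master regulator of fat cells, and C/EBPα (Cebpa) then sustain each other and switch on the genes of mature fat cells. These include Fabp4, which carries fatty acids inside the cell, Lpl, the secreted lipase that frees fatty acids from circulating triglycerides, and Adipoq, the hormone adiponectin. PGC-1α (Ppargc1a) is a coactivator of PPARγ and other nuclear receptors that drives mitochondrial biogenesis. Stromal stem cells can form fat, bone or cartilage cells. Fabp4 and Pparg are also expressed in vessel-lining endothelium, as Lpl and Cebpa are in macrophages.

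The start regions of the pair of members with the largest differences over all kept cells are shown, without the second start of Pparg. Pparg has several starts, of which the first and the second give the PPARγ1 messages and the third the fat-cell form PPARγ2 by textbook knowledge. Sequences are the 250 bases before each start in RefSeq (GRCm38.p6), written 5′ to 3′ on the gene's strand, and capitals mark matches to TTNNGCAA (a C/EBP element), AGGTCA (a nuclear receptor hexamer) or TGACGT (a cyclic AMP response core) on either strand, where the other strand reads TTGCNNAA, TGACCT and ACGTCA. No matches overlap in the windows shown.
Pparg start 1, chr6:115360894-115361143 (+): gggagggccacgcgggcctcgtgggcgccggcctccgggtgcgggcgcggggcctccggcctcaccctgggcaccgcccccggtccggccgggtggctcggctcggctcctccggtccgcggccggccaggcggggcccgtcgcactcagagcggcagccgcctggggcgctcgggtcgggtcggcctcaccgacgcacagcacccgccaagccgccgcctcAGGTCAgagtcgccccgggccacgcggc
Pparg start 3, chr6:115421816-115422065 (+): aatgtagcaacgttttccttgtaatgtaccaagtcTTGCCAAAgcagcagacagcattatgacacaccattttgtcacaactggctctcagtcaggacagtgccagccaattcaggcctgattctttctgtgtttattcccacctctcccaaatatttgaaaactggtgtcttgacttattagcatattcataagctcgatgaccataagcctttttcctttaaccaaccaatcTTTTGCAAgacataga
Ppargc1a, chr5:51567726-51567975 (-): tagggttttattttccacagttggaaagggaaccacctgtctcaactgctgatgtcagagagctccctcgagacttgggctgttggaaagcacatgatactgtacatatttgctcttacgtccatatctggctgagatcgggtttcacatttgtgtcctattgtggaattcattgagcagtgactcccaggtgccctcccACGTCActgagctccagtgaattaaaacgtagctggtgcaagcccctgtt
The third Pparg start had 2 matches to the C/EBP element, TTTTGCAA from 16 to 9 bases and TTGCCAAA from 215 to 208 bases before it. The first had an AGGTCA from 28 to 23 bases before it, and the second, not shown, had one from 9 to 4 bases before it. Ppargc1a had ACGTCA, the other-strand form of TGACGT, from 50 to 45 bases before its start. Of 32851 such windows of all genes, 9.56% held TTNNGCAA, 14.0% held AGGTCA and 6.47% held TGACGT. A match is a description of letters and not a binding site, and counts from the 3′ end of transcripts do not tell which start was used. Of the 9 members, 6 had an entry in this table, and Lpl, Fabp4 and Cebpd had none.

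The primary library kept 11746 of 11896 barcodes with 137148874 UMIs and a median of 10026.5 UMIs per cell, and the cultured library 5338 of 10798 barcodes with 330129909 UMIs and a median of 56864.5. The libraries shared 32 barcodes, 15 of them among kept cells. Itgav, which encodes CD51, was at 92.5 CPM (UMIs scaled to a library of 1e6) in primary and 109 CPM in cultured CDSCs, and Ptprc, which encodes CD45, was at 0.620 and 0.345 CPM. Of 10 chondrocyte markers, 10 had a cultured level 4-fold or more under the primary one, as had 7.48% of all genes with at least 1 CPM. Their summed level was 74996 against 593 CPM. The endothelial markers summed to 15.9 and 11.02 CPM and the macrophage markers to 8.55 and 33.7 CPM. Of the 4 endothelial markers with at least 1 CPM, 3 were at least 4-fold lower after culture and 1 was at least 2-fold higher. Their median log2 ratio was -3.83, so the sums hide opposite directions.

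Over all kept cells, Pparg had the largest excess of the members in cultured CDSCs and Ppargc1a the largest in primary CDSCs. The order of Pparg, Fabp4 and Lpl turns with the cells left out, as given beside Fabp4. Pparg was 5.63-fold higher after culture (95% interval 5.36 to 5.90) and Ppargc1a 16.7-fold higher before it (15.8 to 17.5). Fabp4 and Lpl were 2.55-fold and 3.10-fold higher in the cultured library, whereas Adipoq was at 4 UMIs in all primary cells and 6 UMIs in all cultured cells. Of the 8 members with at least 1 CPM in either library, 1 was higher in cultured CDSCs by 4-fold or more, as were 12.6% of all 12839 such genes, and 1 was lower by 4-fold or more, as were 7.48%. At 2-fold, 3 members were higher against 28.9% of all genes, and 2 were lower against 15.1%. The median log2 ratio of the 8 members was -0.07 and that of all genes was 0.36. The members as a group had no common direction, and 3 of the 8 lay within 2-fold.

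**Figure D1:**
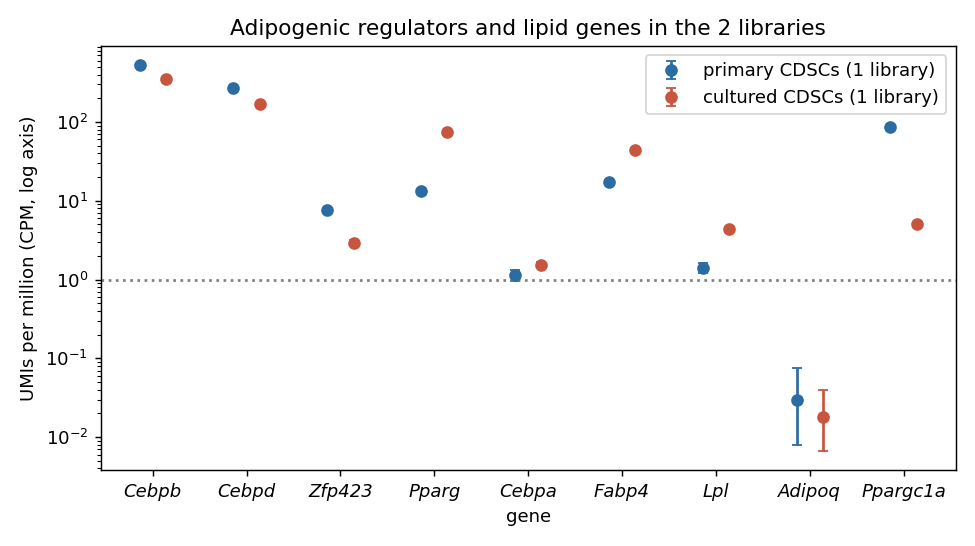
Level of each member in CPM (log axis) in primary (blue) and cultured (red) CDSCs, 1 library each, with exact 95% Poisson intervals and a dotted line at 1 CPM. Pparg, Fabp4 and Lpl lie higher in the cultured library, Ppargc1a and Zfp423 lie lower, and Adipoq stays far under 1 CPM in both.

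The early factors were the most widely detected members. Cebpb (chr2:167688915-167690418) was at 521 CPM (518 to 525) in primary and 350 CPM (348 to 352) in cultured CDSCs, a log2 ratio of -0.58. Cebpd (chr16:15887286-15891031) was at 272 CPM (269 to 274) and 167 CPM (166 to 168), a log2 ratio of -0.70. Both were thus lower after culture by less than 2-fold. Shares of cells were compared at equal depth, with 5000 UMIs drawn from each of the 10959 primary and 4543 cultured cells that had as many. A Cebpb UMI was then found in 72.2% of primary and 73.9% of cultured cells, and a Cebpd UMI in 53.1% and 45.5%. Cells with at least 3 Cebpb UMIs made up 37.0% of primary and 26.8% of cultured cells, so the level differed more than the share with any UMI.

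Zfp423 (chr8:87661810-87959595), the commitment factor, was at 7.63 CPM (7.18 to 8.11; 1047 UMIs) in primary and 2.95 CPM (2.77 to 3.14; 974 UMIs) in cultured CDSCs. Its log2 ratio was -1.37 (-1.50 to -1.24), and the share of thinned cells with a UMI was 3.42% against 1.67%. In the primary library its highest level was in the 288 cells of cluster 8, at 63.5 CPM, while the other clusters of at least 100 cells ranged from 3.15 to 10.7 CPM. Clusters were made within each library without the members, and this cluster mixed several cell types.

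Pparg (chr6:115360951-115490399) had 1816 UMIs in primary CDSCs, or 13.2 CPM (12.6 to 13.9), and 24596 UMIs in cultured CDSCs, or 74.5 CPM (73.6 to 75.4). The log2 ratio of 2.49 (2.42 to 2.56) was higher than those of 91.2% of all genes with at least 1 CPM. After thinning, 4.44% of primary cells (4.07 to 4.85) and 24.5% of cultured cells (23.2 to 25.7) had a Pparg UMI. The difference was thus seen both in the summed level and in the share of cells. Without thinning the shares were 8.57% and 57.7%. No cell type that surely lacks Pparg was numerous enough to give a background share. Primary mesenchymal fibroblast-like cells had a Pparg UMI in 1 of 117 thinned cells (0.855%, median depth 5626 UMIs), against 4.34% of chondrocyte-like cells (median 9118.5). The endothelial gene Cdh5, which few of these cells should express, had a UMI in 0.210% of primary and 0.0220% of cultured thinned cells.

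Cebpa (chr7:35119293-35121928), the partner of PPARγ in fat cells, was sparse in both libraries. It had 156 primary UMIs (1.14 CPM, 0.966 to 1.33) and 506 cultured UMIs (1.53 CPM, 1.40 to 1.67). The log2 ratio was 0.43 (0.17 to 0.70), close to the 0.36 of the median gene, and no cell of either library held 10 or more Cebpa UMIs. The thinned shares of 0.602% and 0.947% had intervals of 0.466 to 0.766% and 0.686 to 1.27%, which overlapped.

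**Figure D2:**
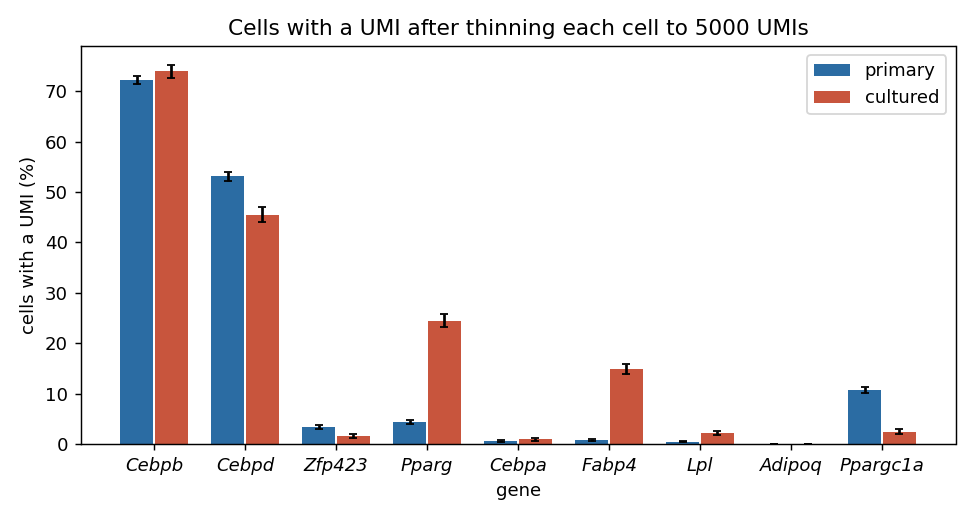
Percent of cells with at least 1 UMI of each member after each cell was thinned to 5000 UMIs, for 10959 primary (blue) and 4543 cultured (red) cells, with exact 95% binomial intervals. Pparg and Fabp4 reach 24.5% and 14.9% of cultured cells, Ppargc1a reaches 10.7% of primary cells, and Cebpb is found in most cells of both libraries.

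The lipid genes Fabp4 and Lpl were higher in the cultured library and were found in a larger share of its cells. Fabp4 (chr3:10204088-10208576) had 2358 primary UMIs (17.2 CPM, 16.5 to 17.9) and 14472 cultured UMIs (43.8 CPM, 43.1 to 44.6), a log2 ratio of 1.35 (1.29 to 1.41). A Fabp4 UMI was found in 0.894% of primary and 14.9% of cultured thinned cells. Lpl (chr8:68880491-68907448) had 191 primary UMIs (1.39 CPM, 1.20 to 1.605) and 1427 cultured UMIs (4.32 CPM, 4.10 to 4.55), a log2 ratio of 1.63 (1.42 to 1.86). Its thinned shares were 0.484% and 2.18%.

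Most primary Fabp4 came from 25 endothelial-like cells. Cluster 8 of the primary library was clustered again because it carried markers of several classes, and 1 of its parts was marked by Pecam1, Cdh5, Kdr, Flt1, Emcn, Egfl7, Tie1 and Esam, genes of vessel-lining cells. These 25 cells were 0.213% of the library and held 1966 Fabp4 UMIs, 83.4% of the primary total, at 6877 CPM (6576 to 7188). Pparg in them was at 140 CPM (99.96 to 191) from 40 UMIs, or 2.20% of the primary Pparg count. The primary cell with the most Fabp4 held 290 UMIs of it beside 26 of Pecam1, 25 of Cdh5 and 35 of Cd36, a fatty acid transporter of capillaries. In the 9018 chondrocyte-like cells Fabp4 was at 2.28 CPM (2.00 to 2.60), and after thinning 0.763% of them had a UMI, against 16 of 17 endothelial-like cells at a median depth of 10273 UMIs. A share this low was not told apart from free RNA.

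Without the haematopoietic-like and endothelial-like clusters, the Fabp4 log2 ratio was 3.93 in place of 1.35, which put it past 4-fold, and 2 members were then at least 4-fold higher. Without all of primary cluster 8 and without the cultured macrophage-like cluster, an alternative chosen after the data were seen, it was 4.47 and that of Lpl was 2.67, so that 3 members were past 4-fold. The share of all genes past 4-fold was not computed for these cell sets, so the 2 counts have no share to be read against. The Pparg log2 ratio was 2.52 and 2.51 under these alternatives, so Fabp4 passed Pparg under both and Lpl under the second. The cells left out were 25 and 288 of the 11746 primary cells. The 25 were the endothelial-like cells, since no primary cells were named haematopoietic-like. The 29 unnamed cells led by the mast cell genes Tpsb2 and Mcpt4 thus stayed in the first alternative. They held 119 Fabp4 UMIs at 238 CPM (197 to 284). They also carried the smooth muscle and pericyte markers Rgs5, Notch3, Abcc9, Myh11 and Acta2. An alternative clustering with more components named 158 primary cells granulocyte and mast-like, led by the same mast cell genes. Those 158 cells held 1 Fabp4 UMI (0.785 CPM), against 126 in the 263 cells it named mesenchymal fibroblast-like. Which cell type carried the 119 UMIs was not tested.

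The same mixed cluster had the highest primary Lpl level. Cluster 8 held 57.1% of the primary Lpl UMIs at 41.9 CPM (34.4 to 50.6), against 3.802 CPM or less in every other primary cluster. Within it, Lpl was at 147 CPM in 38 unnamed cells led by Chodl and Cilp and at 28.8 CPM (20.7 to 38.9) in the 188 mesenchymal fibroblast-like cells. It was at 57.9 CPM in 29 unnamed cells led by mast cell genes (Tpsb2, Mcpt4) together with the pericyte gene Rgs5. The endothelial-like cells had 6 Lpl UMIs, at 21.0 CPM (7.70 to 45.7), an interval that overlapped that of the fibroblast-like cells. In the cultured library, 9 macrophage-like cells held 10.3% of all Lpl UMIs at 363 CPM (306 to 426), with Cebpa at 14.8 CPM (5.43 to 32.2) from 6 UMIs.

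Adipoq (chr16:23146536-23158028) was at or near the limit of detection. It had 4 UMIs in 4 primary cells (0.0292 CPM, 0.00795 to 0.0747) and 6 UMIs in 5 cultured cells (0.0182 CPM, 0.00667 to 0.0396). The interval of the log2 ratio ran from -2.76 to 1.59, so no direction was detectable at this depth. Other genes of the mature fat cell differed among themselves. The counts below are UMIs of libraries that held 137148874 and 330129909 UMIs, so an equal level gives more UMIs in the cultured one. Plin1, which coats lipid droplets, had 29 and 58 UMIs, and Cidec, which enlarges them, had 16 and 9. Cfd (adipsin) had 0 and 8, and Lep (leptin) had 1 and 0. The thinned shares of Plin1 were 0.0912% (0.0438 to 0.168) and 0.176% (0.0761 to 0.347), with overlapping intervals. Retn (resistin) had 29 and 234 UMIs, a log2 ratio of 1.75 (1.18 to 2.36), and was in 24 primary and 190 cultured cells. Its thinned shares were 0.100% and 0.330%. Of the 8 adipocyte markers, 2 reached 1 CPM in either library, with a median log2 ratio of 3.51. Both were higher in cultured CDSCs by at least 2-fold, as were 28.9% of all genes, and 1 by at least 4-fold, as were 12.6%. These were Plin4, a droplet coat gene with 8 primary and 924 cultured UMIs (log2 ratio 5.58) in 607 cultured cells, and Car3, with 90 and 582 UMIs (1.43), both named after their values were seen. Plin4 and Car3 reached 1 CPM in the cultured library alone, so the filter itself favoured a higher cultured level. Their counts and their median are therefore no evidence of a direction. The 8 markers summed to 1.31 CPM in primary and 5.50 CPM in cultured CDSCs.

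Ppargc1a (chr5:51454250-51567726) ran the other way. It had 11728 primary UMIs, or 85.5 CPM (84.0 to 87.1), and 1694 cultured UMIs, or 5.13 CPM (4.89 to 5.38). The log2 ratio was -4.06 (-4.13 to -3.99), and only 2.87% of all genes with at least 1 CPM had a lower ratio. After thinning, 10.7% of primary cells (10.1 to 11.3) and 2.47% of cultured cells (2.03 to 2.96) had a UMI. Without thinning the shares were 14.9% and 15.1%, at median depths of 10026.5 and 56864.5 UMIs. Ppargc1a was concentrated in few cells, with 356 primary and 16 cultured cells at 10 or more UMIs, and the most in a cell was 104 UMIs in primary and 32 in cultured CDSCs.

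Across the primary clusters Ppargc1a and Pparg were highest in different cells. Cluster 1, 2657 chondrocyte-like cells led by Tll1, Clu, Cilp2 and Prg4 (lubricin, made at the surface of joint cartilage), held 61.0% of the Ppargc1a UMIs at 317 CPM (310 to 325). After thinning 26.7% of its cells had a UMI. It also had the lowest Pparg level, 4.25 CPM (3.45 to 5.20). Cluster 4, 1153 chondrocyte-like cells with Plet1 and Ptgs2 among its leading genes, had the highest Pparg level, 29.95 CPM (27.3 to 32.8), the highest Cebpb level, 821 CPM, and the lowest Ppargc1a level, 8.88 CPM (7.44 to 10.5). Clusters 2, 3 and 5 had Pparg at 14.3, 13.4 and 13.6 CPM with overlapping intervals, while Ppargc1a in them was at 14.5, 37.0 and 102 CPM. Over the 10 primary clusters the Spearman rho between the pair was -0.31, a weak correlation given as a description. Single cells showed the same order, with a Ppargc1a UMI in 6.98% (4.88 to 9.62) of thinned primary cells that had a Pparg UMI and in 10.9% (10.3 to 11.5) of those that had none. Without thinning these shares were 14.0% (11.9 to 16.3) and 15.0% (14.3 to 15.7), with overlapping intervals.

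In the cultured library most members were highest in 1 cluster. Cluster 4, 696 cells led by Mmp13, Csmd1, Gdf10, Sfrp4 and Comp, had the highest level of Pparg at 210 CPM (205 to 214), Fabp4 at 135 CPM (131 to 139), Lpl at 16.2 CPM (15.0 to 17.5), Cebpa at 4.30 CPM, Zfp423 at 8.65 CPM and Ppargc1a at 9.16 CPM (8.26 to 10.1) among the 9 cultured clusters of at least 100 cells. It held 35.1% of the Pparg, 38.4% of the Fabp4 and 46.7% of the Lpl UMIs of the library. Cluster 8, 267 cells led by Nr5a2, Barx1, Sfrp2 and Ptgis, had the lowest Pparg at 13.7 CPM (12.3 to 15.3), Fabp4 at 10.96 CPM (9.67 to 12.4) and Lpl at 0.337 CPM (0.145 to 0.664). Pparg varied 15.2-fold over these cultured clusters, 30.7-fold with clusters made at resolution 1.0 and 55.5-fold with 30 components, and the lowest cluster was another in each. After thinning 348 of 696 cells of cluster 4 and 19 of 265 cells of cluster 8 (7.17%) had a Pparg UMI. Cluster 5, led by Gpc3, Cyp26b1, Omd and Aspn, came second in Pparg at 143 CPM (139 to 147), but its Fabp4 level of 38.6 CPM was under that of cluster 2 (41.1 CPM), where Pparg was at 27.8 CPM. Cebpb varied 1.68-fold over the same clusters. Cluster 3 had a median of 1200 UMIs per cell and gives wide intervals.

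**Figure D3:**
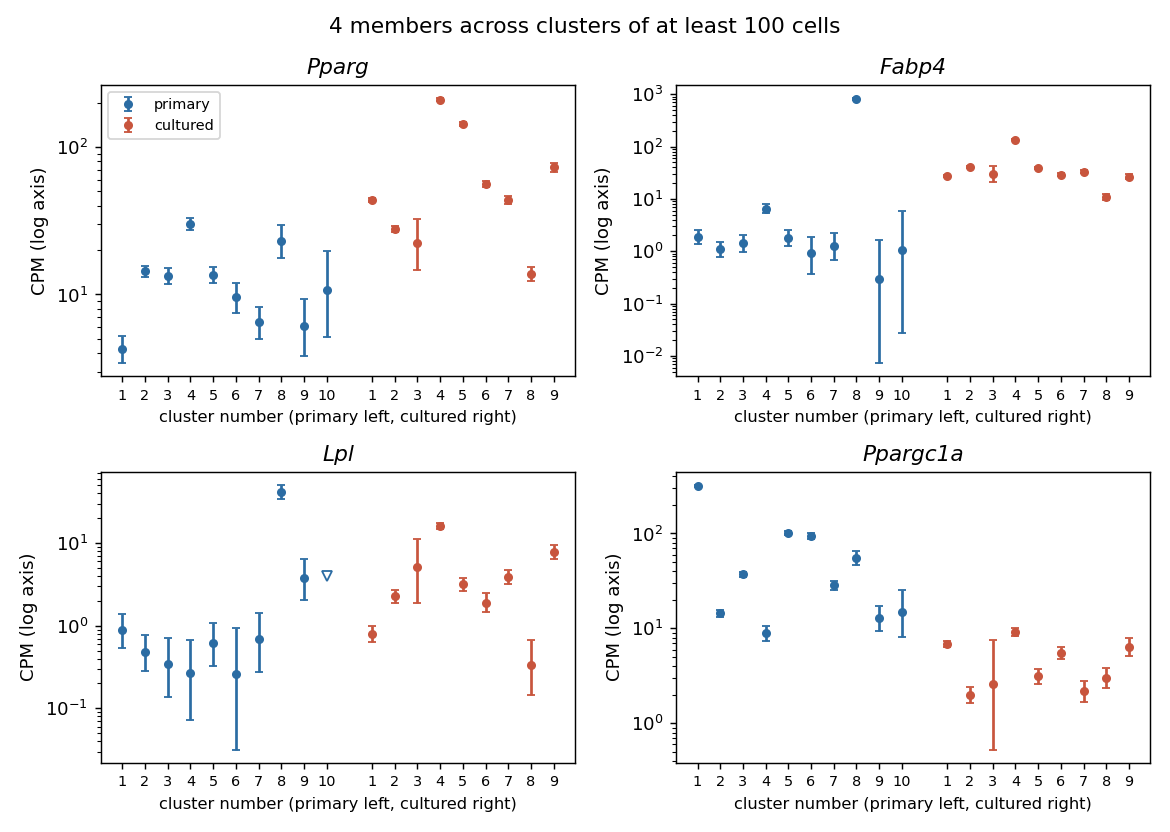
Level of Pparg, Fabp4, Lpl and Ppargc1a (CPM, log axes) in the clusters of at least 100 cells, 10 primary (blue, left) and 9 cultured (red, right), with exact 95% Poisson intervals; an open triangle marks the upper limit for 0 UMIs. Cultured cluster 4 is highest in Pparg (210 CPM), primary cluster 8 stands apart in Fabp4 and Lpl, and primary cluster 1 is highest in Ppargc1a (317 CPM).

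Over the 9 cultured clusters the Spearman rho with Pparg was 0.82 for Cebpa, 0.88 for Zfp423, 0.58 for Lpl, 0.45 for Fabp4, 0.60 for Ppargc1a, 0.77 for Adipoq (from 6 UMIs) and -0.13 for both Cebpb and Cebpd. The sign for Ppargc1a was thus opposite to that over the primary clusters. These are descriptions over clusters of 1 library that share a preparation but not a depth (medians of 1200 to 87622 UMIs per cell). Cluster 3, the shallowest, entered with 0 UMIs of Cebpa and of Zfp423, each with an upper limit of 3.16 CPM. The genes whose log2(CPM + 1) over all 19 clusters was most like that of Pparg were Il1r1 (Pearson r = 0.90), the interleukin-1 receptor, Gnao1 (0.89) and Snx9 (0.87). For Lpl they were Igsf10 (0.87), Gng11 (0.85) and Aqp1 (0.83), and for Fabp4 they were Kctd12 (0.93), Adamtsl1 (0.92) and Rbpms (0.92). Within cultured clusters alone, r was 0.91 between Pparg and Il1r1 and 0.07 between Fabp4 and Adamtsl1.

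The lipid genes were found more often in cultured cells that had Pparg. At 5000 UMIs per cell, 24.1% (21.6 to 26.7) of the 1111 cultured cells with a Pparg UMI also had a Fabp4 UMI, against 11.9% (10.9 to 13.1) of the 3432 cells without. The shares were 3.78% and 1.66% for Lpl, 3.06% and 1.22% for Zfp423, and 1.53% and 0.758% for Cebpa, whose intervals of 0.894 to 2.44% and 0.495 to 1.11% overlapped. In primary cells Fabp4 was found in 2.67% of the 487 cells with Pparg and 0.812% of the others, endothelial-like cells included. Pparg, Fabp4 and Lpl were found together in 25 of 4543 cultured and 1 of 10959 primary cells, and in none of these with Adipoq, which limits cells with such UMIs at this depth to 0.0660% of cultured and 0.0274% of primary cells at 3 counts, and does not limit cells that express the gene. Without thinning the 3 were together in 331 cultured and 7 primary cells, 2 and 0 of these with Adipoq, and all 5 cultured cells with an Adipoq UMI had one of Pparg. So had 57.7% of all cultured cells without thinning. At 5000 UMIs the 1 cultured cell with an Adipoq UMI had none of Pparg. A cultured cell with 86869 UMIs in all had the most Fabp4 (420 UMIs), Lpl (68) and Cebpa (6) of its library beside 65 of Pparg. It had 0 UMIs of Adipoq, Plin1 and Cidec.

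**Figure D4:**
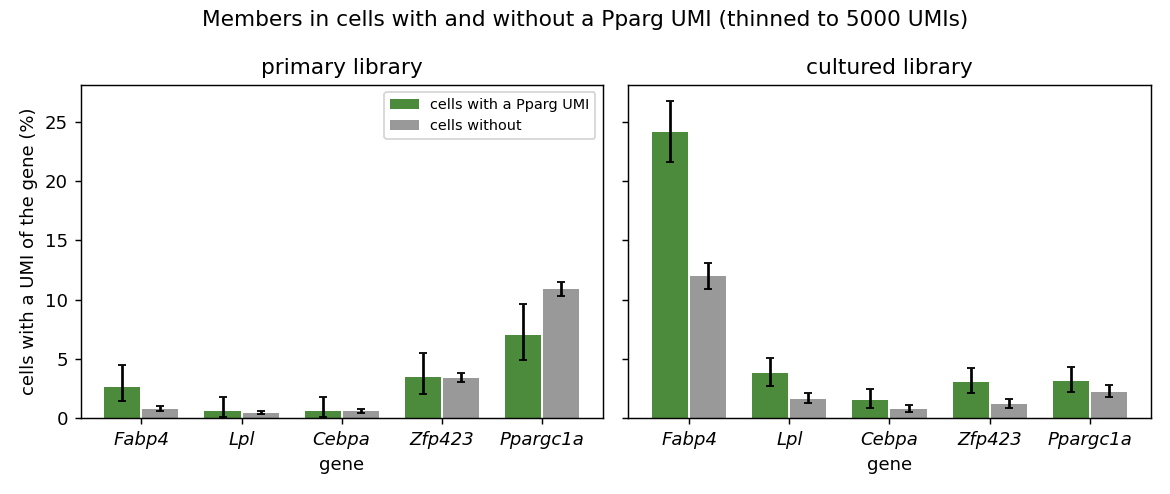
Percent of cells with a UMI of Fabp4, Lpl, Cebpa, Zfp423 and Ppargc1a among cells with (green) and without (grey) a Pparg UMI, in primary (left) and cultured (right) cells thinned to 5000 UMIs, with exact 95% binomial intervals. Fabp4 is found in 24.1% of cultured cells with Pparg and 11.9% of those without.

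Genes around the members in the adipogenic pathway differed in both directions. So did all genes with at least 1 CPM, of which 12.6% were higher and 7.48% lower after culture by 4-fold or more. Counts in lists of this size are descriptions and were not tested against these shares. Of 17 other activators of adipogenesis, 1 was higher and 3 were lower in cultured CDSCs by 4-fold or more, with a median log2 ratio of -0.46. Bmp4, a commitment signal, had a log2 ratio of 1.71 and the PPARγ partner Rxra one of 1.09, whereas Egr2 (Krox20) and Klf15, both upstream of C/EBPs or Pparg, had ratios of -4.29 and -2.37. Of 13 inhibitors with at least 1 CPM, 3 were higher and 4 lower, with a median of -0.78. Dlk1, the preadipocyte factor Pref-1 and also a cartilage gene, went from 2200 to 56.3 CPM (log2 ratio -5.29), and Sox9, the master factor of cartilage, had a log2 ratio of -4.01. Gata2 and Nr2f2, which restrain Pparg, had log2 ratios of 3.58 and 3.37. In the PPAR and PGC-1 family and its partners, 0 of 14 genes passed 4-fold, with a median of -0.35. Esrra, a nuclear receptor coactivated by PGC-1α, was at 1.90 and the Mediator subunit Med1 at 0.84, while the PGC-1 relative Pprc1 was at -1.57 and the deacetylase Sirt1 at -1.15. Of the other C/EBP genes, Ddit3 (CHOP), a stress-induced partner, had a log2 ratio of -3.16 and Cebpg one of -1.08. The symbol Ddit3 stands on 2 rows of the files, and this value is that of the row with the usual identifier.

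Lipid handling genes also differed in both directions, beside 12.6% of all genes higher and 7.48% lower by 4-fold or more. Of 15 genes of fatty acid uptake and LPL partners, 3 were higher and 3 lower after culture by that margin, with a median log2 ratio of -0.46 that turned to 0.98 among genes with at least 10 CPM. Angptl4, a secreted LPL inhibitor and PPAR target, was at 3.77 and the lysosomal lipase Lipa at 3.43. The apolipoprotein gene Apoe was at -2.97 and Acsl3, which activates fatty acids, at -2.37. Gpihbp1, which anchors LPL to capillary endothelium and is named here after its values were seen, had 254 primary and 0 cultured UMIs. It was the first of the leading genes of the 25 endothelial-like primary cells. Of 12 lipid droplet and lipolysis genes 1 was higher and 3 lower, with a median of 0.35. The droplet coat gene Plin3 was at 1.40 and the lipase Pnpla2 at 0.72, while Mgll, which splits monoglycerides, was at -2.02 and the lipase inhibitor G0s2 at -4.87.

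Of 12 genes of fatty acid and triglyceride synthesis, 0 passed 4-fold in either direction and the median was -0.08. Agpat2 was at 1.12 and Dgat1 at 0.52, which both build triglycerides, and Fasn, fatty acid synthase, was at -0.96 and Elovl6, which lengthens fatty acids, at -1.65. Of 10 genes of fatty acid oxidation, 2 were at least 4-fold higher and 1 lower, with a median of 1.13. Cpt1a, the gate of mitochondrial fatty acid entry, was at 3.46, the dehydrogenase Acadm at 2.20 and Hadhb at 0.08. The median of all genes was 0.36, and 12.6% of them were at least 4-fold higher and 7.48% lower. Of 6 adipokines and receptors 0 passed 4-fold, with a median of -0.08. Cdh13, an adiponectin-binding cadherin, was at 1.07, Rbp4 at 0.73, Nampt at -0.38 and the adiponectin receptor Adipor2 at -0.53.

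**Figure D5:**
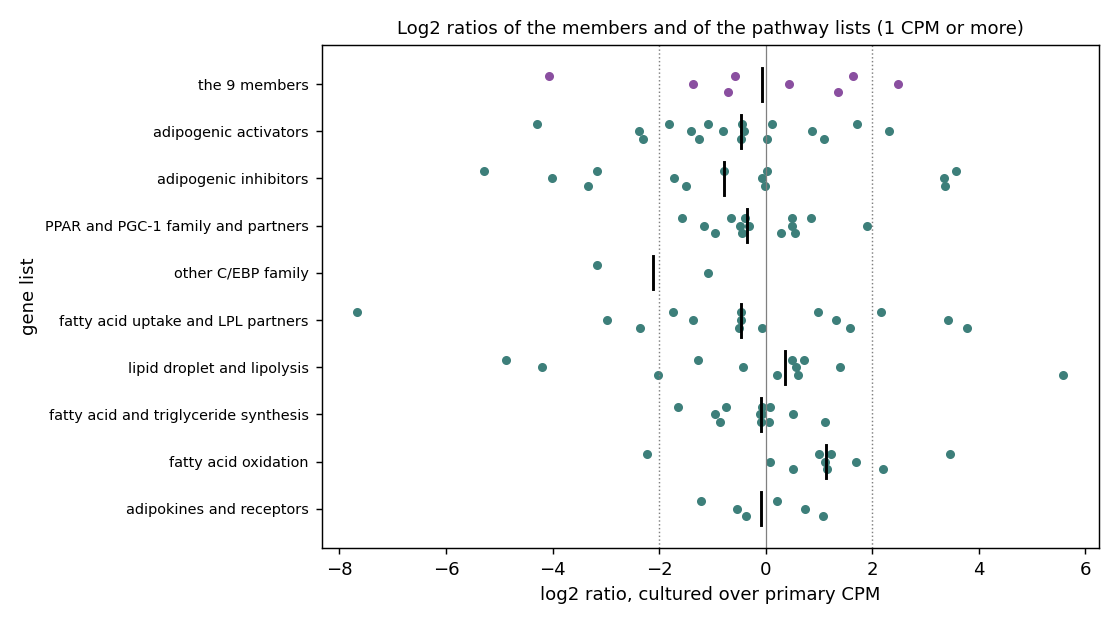
Log2 ratio of cultured over primary CPM for the members and for each gene of 9 pathway lists with at least 1 CPM in either library; black bars are medians, dotted lines mark 4-fold, and a count under 3 was raised to 3. The members run from -4.06 (Ppargc1a) to 2.49 (Pparg), and the fatty acid oxidation list has the highest median, 1.13.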

How the data were processed

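Groups follow the treatment labels, with 1 library each. The deposited matrices hold raw UMI counts of 10x Genomics 3′ libraries, 1 whole number for each gene and barcode, which the authors had made with Cell Ranger 7.0.0 per the file headers and had not normalised. The submitters' notes list more than 1 mouse genome build, and whether intronic reads were counted was not given in the sources used here. Coordinates came from GENCODE M21 (GRCm38) by gene identifier. The 9 members and the gene lists were chosen with earlier results of these data known.

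Barcodes with under 500 genes or under 1000 UMIs, or with over 10% of their UMIs from mitochondrial genes, were left out. Doublets were kept, because Scrublet's automatic threshold marked 0 primary and 1 cultured cell and had not worked. Leaving out the 1118 and 461 highest scores was an alternative. Summed counts of each library were divided by its total to give CPM. Log2 ratios set cultured CPM over primary CPM after any count under 3 was raised to 3. A difference was called at 4-fold, among genes that reached 1 CPM in a library. Intervals are exact Poisson, binomial (Clopper-Pearson) and conditional 95% intervals. Cells were thinned without replacement to 5000 UMIs, and shallower cells (787 primary, 795 cultured) were left out of shares. Ratios and intervals were tested on simulated data.

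Each library was clustered in scanpy 1.11.5 (Leiden, resolution 0.5, 20 neighbours, 10 components, 2000 variable genes) without the members and pathway genes. A name needs at least 3 markers of a class at 50 CPM and 4-fold excess, with at least 1 among the 10 leading genes and no other class equal or higher there. A cluster with no such class is chondrocyte-like where at least 3 chondrocyte markers have 1000 CPM. Clusters with markers of several classes were clustered again at resolution 1.0, a step added after the clusters were seen, as was the rule on ties. The genes named are the members, in each pathway list the 2 highest and 2 lowest ratios among genes with at least 10 CPM, 5 fat cell genes, and the 3 genes most like Pparg, Lpl and Fabp4. Some genes that this rule would name are not reported here. Alternatives used other filters, edgeR 4.0.16 (TMM), median-of-ratios scaling, equal weight per cell and other cell sets.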

Additional observations from a re-analysis of the deposited data

How the results depend on the processing

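No paired analysis was possible because each group is 1 library. Under 9 alternatives of cells, scaling and weight, no member's log2 ratio changed sign. Pparg ranged from 2.27 to 2.85, Ppargc1a from -4.31 to -4.01, Cebpa from 0.21 to 0.48, Zfp423 from -1.59 to -1.15, Fabp4 from 1.13 to 4.47 and Lpl from 1.41 to 2.67. Over all 9 members, 25 values lay outside the counting interval of the reported value and 56 inside it. The count of members at least 4-fold higher, 1 as reported, was 2 without haematopoietic-like and endothelial-like clusters, 3 without the mixed primary cluster and the macrophage-like cluster, and 3 at a 2-fold threshold. The share of all genes was 28.9% at 2-fold and was not computed for the altered cell sets. The count of members lower, 1 as reported, was 2 at a 2-fold threshold. It was 1 under every other alternative run. Of all genes, 1615 were at least 4-fold higher and 960 lower. With at least 10 CPM these counts were 966 and 522, since fewer genes were tested, and with no filter beyond 3 counts 2011 and 1939, since more were. TMM scaling shifted the median of all genes by -0.20 and median-of-ratios scaling by -0.22 on the log2 scale, and Cebpa at 0.23 and 0.21 remained positive.

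At resolution 1.0 and with 30 components, the highest cultured cluster level of Pparg was 320 and 226 CPM against 210 as reported, and the lowest 10.4 and 4.08 CPM against 13.7, among clusters of at least 100 cells. The highest primary level of Fabp4 among such clusters was 53.7 and 53.6 CPM against 805, since the 25 endothelial-like cells, at 6877 CPM, formed a cluster of their own in both. The median of the fatty acid uptake and LPL partner list was 0.98 at 10 CPM against -0.46, and that of the adipokine list 0.21 against -0.08. The other pathway list medians kept their sign at 10 CPM and all 9 did under TMM. With 1 library per group, differences between animals and preparations could not be estimated, and 50.6% of cultured barcodes failed the filter.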

Other observations

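The marker lists that name cell types are given here once as summed levels in primary and cultured CDSCs. The mesenchymal fibroblast markers summed to 2602 and 1172 CPM, with Col1a1 at a log2 ratio of 2.24 and Postn at -4.88. The markers of CXCL12-abundant reticular and marrow stromal cells, the marrow cells from which fat cells arise, summed to 456 and 1098 CPM. Of these 8, 4 were at least 4-fold higher in the cultured library, as were 12.6% of all genes. In the other direction, 0 were at least 4-fold lower and 1 at least 2-fold lower, as were 7.48% and 15.1% of all genes. The smooth muscle and pericyte markers summed to 299 and 1279 CPM, the granulocyte and mast cell markers to 33.0 and 0.285 CPM, and the erythroid markers to 4.93 and 2.07 CPM. Skeletal muscle markers summed to 306 and 25.8 CPM, Schwann cell markers to 190 and 39.6 CPM, and tenocyte markers to 1883 and 134 CPM.

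Cluster 10 of the cultured library, 53 cells led by Lars2, had the highest Pparg level of any cluster, 283 CPM (95% interval 257 to 310), with Fabp4 at 11.9 CPM (7.15 to 18.6). Its cells had a median of 7.21% mitochondrial UMIs, against 2.70% or less in every other cultured cluster. They also had a median of 21040 UMIs, against 56864.5 in the library, so low cell quality was not told apart from a cell state. Cluster 10 is named after its values were seen, and its small size kept it out of the comparisons over clusters.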
